A study of Homo sapiens with 10 samples.

Results

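The genes described here build, sulfate, carry or edit heparan sulfate, and were read from 10 Affymetrix HG-U133 Plus 2.0 arrays of RWPE-1 cells. They comprise the sulfotransferases HS3ST1, HS2ST1 and HS6ST2, the bifunctional enzyme NDST1, the chain polymerases EXT1 and EXT2, the proteoglycan core proteins SDC1, SDC4 and GPC1, and the extracellular sulfatase SULF2. Every probe set annotated to exactly 1 gene was taken where that gene was 1 of these 10, which gave 25 of 41091 such probe sets. The list was drawn up with earlier results of these arrays known, so the differences of these genes between the groups are given as descriptions and no p-value is printed for them.

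RWPE-1 cells are immortalised prostate epithelial cells of human origin that form no tumours. All cells had been transduced with MSCV retroviruses and selected as stable clones, and all groups carried BirA, a biotin ligase. Control cells expressed BirA alone (3 arrays, replicates A to C), and the others expressed BirA with ETV1 (4 arrays, A to D) or BirA with ERG (3 arrays, A to C), both ETS transcription factors activated in prostate cancer. Every group was kept under normal growth conditions. The series design speaks of biological replicates, but how many separate clones the arrays stand for is not given in the labels, so the spread between arrays may be partly technical and may belong to 1 clone.

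Heparan sulfate is a long sugar chain attached to a small number of core proteins at the cell surface and in the matrix. EXT1 and EXT2 together lengthen the chain, NDST1 starts its modification by exchanging acetyl for sulfate groups, and the O-sulfotransferases then add further sulfates, whose pattern decides which growth factors, proteases and inhibitors the chain binds. In epithelia, syndecans and glypicans carry these chains as co-receptors of fibroblast growth factors and other ligands, and the SULF enzymes remove sulfates again outside the cell.

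Against the other 7 arrays, those labelled ERG formed a distant set. Spearman correlations with control arrays over all probe sets were 0.766 to 0.811 for the arrays labelled ERG and 0.956 to 0.969 for the ETV1 arrays. Median intensity was 48.45 to 52.55 on the arrays labelled ERG, 71.35 to 73.39 on the control arrays and 70.9 to 75.5 on the ETV1 arrays, and the 3 prime to 5 prime ratio of ACTB, a sign of RNA integrity, was 2.75 to 3.07, 1.35 to 1.40 and 1.24 to 1.304, in that order. For GAPDH this ratio was 0.946 to 1.045, 0.893 to 0.931 and 0.994 to 1.0496. ERG itself did not settle the label: its probe set 211626_x_at read 25.7, 33.9 and 49.95 on these arrays and at most 20.2 elsewhere, whereas 222079_at read 9.80, 7.70 and 10.8 against 191, 183 and 185 in control. The suffix of 211626_x_at marks probes that can match several transcripts, and it lay below the median of every array. So did ERG 213541_s_at and 241926_s_at, on which the arrays labelled ERG overlapped control. The basal epithelial markers KRT5, KRT14 and ITGA6 summed to 17744 to 19127 in control, 22336 to 23789 in ETV1 and 26424 to 26891 on the arrays labelled ERG, and 4 luminal markers to 8928 to 10398, 5651 to 8218 and 11300.3 to 11877. These sums follow the brightest genes: of the 4 luminal markers 1 rose and 2 fell on the arrays labelled ERG, with a median difference of -0.61, and 1 fell in ETV1 cells. The sum of 2 general epithelial markers was 5119 to 7313 in control, 4192 to 4860 in ETV1, where 1 fell by 0.89, and 8305 to 9455 on the arrays labelled ERG. The summed level of 6 fibroblast markers was 974 to 1247 in control, 1123 to 1176 in ETV1 and 246 to 329 on the arrays labelled ERG, and that of 4 endothelial markers 1444 to 1653, 1329 to 1492 and 177 to 207, with no marker at the floor of 1 throughout a group. For 2 leukocyte markers the sums were 180.2 to 261, 189.7 to 219 and 36.8 to 78.1. These shifts lie beside every ERG-labelled result below, and the basal, luminal and epithelial ones beside the ETV1 results too. Their part in those results was not tested. A group's bulk level also cannot tell fewer expressing cells from less RNA per cell.

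In ETV1 cells, HS3ST1 and SDC1 were higher than in control and HS2ST1 was lower, while the polymerases, NDST1 and SDC4 lay close to control. Differences are given on the log2(intensity + 16) scale, with the standard error (SE) from limma, and a probe set is called past the threshold at a Benjamini-Hochberg adjusted p of 0.05 over all 41091 probe sets. Of the 25 probe sets, 4 lay past the threshold as higher and 3 as lower, 7 in all, beside 12.2% of all probe sets (5.77% higher and 6.39% lower). Without ETV1 replicate A, B or C the count was 3, and without control replicate A or B it was 4, all higher, while the count over all probe sets went from 4998 to as few as 2924. The median difference was -0.08 for the 25 and -0.02 for all probe sets. In 8 of 25 the ETV1 and control arrays did not overlap, beside 24.9% of all probe sets.

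The genes parted in both directions on the arrays labelled ERG: SDC4, EXT1, EXT2, HS2ST1, HS3ST1 and HS6ST2 read higher than in control by their brightest probe sets, and GPC1 and NDST1 read lower. Of the 25 probe sets, 8 lay past the threshold as higher and 8 as lower, 16 in all, beside 65.9% of all probe sets (34.6% higher and 31.3% lower). After centring each array on its median, 10 were higher and 5 lower. That centring moved the median difference of all probe sets from 0.06 to 0.42. Arrays did not overlap in 15 of 25, beside 66.4% of all. Both comparisons use the same 3 control arrays. The brightest probe set here means that with the highest mean of the 3 group means.

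**Figure D1:**
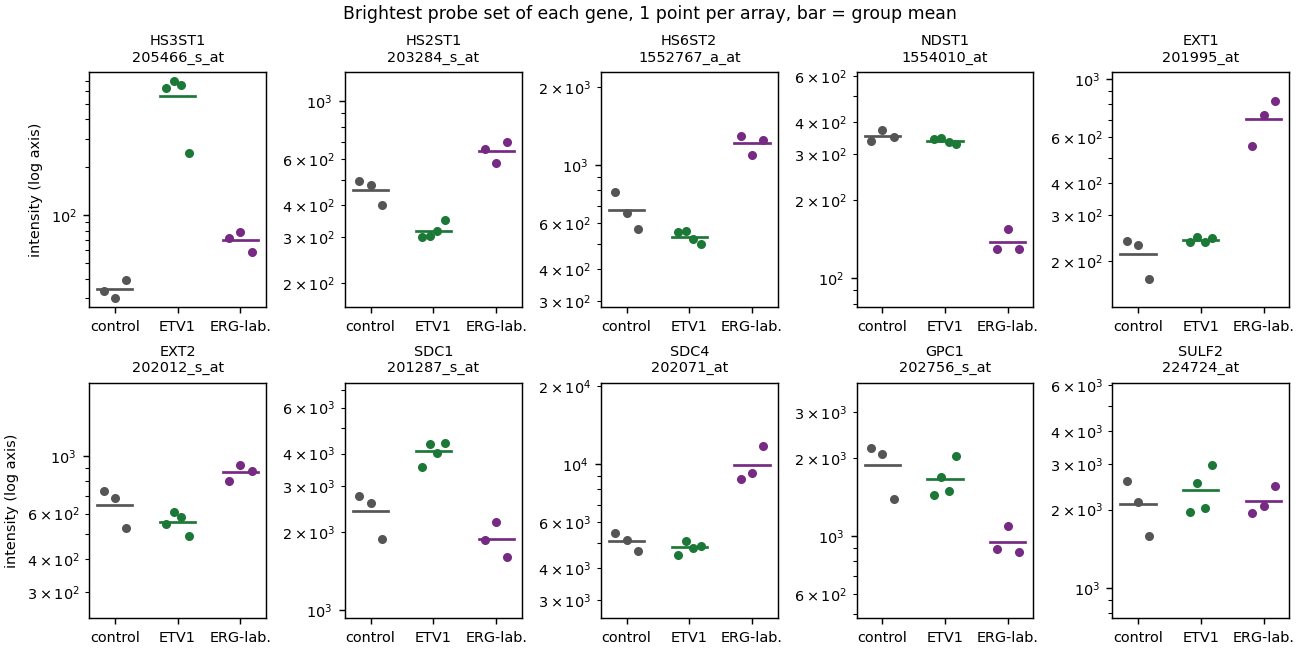
Intensity (log axis, one range per panel) of the brightest probe set of each of the 10 genes, 1 point per array and a bar at the group mean, for control (n = 3), ETV1 (n = 4) and ERG-labelled (n = 3) arrays. HS3ST1 is highest on the ETV1 arrays, at 247 to 693 against at most 39.4 in control, and SDC4, EXT1 and HS6ST2 are highest on the arrays labelled ERG.

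HS3ST1 adds the rare sulfate that completes the antithrombin-binding site of heparan sulfate. Its probe set 205466_s_at read 33.2, 30.1 and 39.4 on control replicates A, B and C and 630.2, 693, 658 and 247 on ETV1 replicates A to D. Every ETV1 array lay above every control array, and replicate D was far below the other ETV1 arrays. The group means were 34.2 ± 4.75 (SD, n = 3) and 557 ± 208 (n = 4), a ratio of 16.3 and a difference of 3.41 (SE 0.28). All 3 control values lay below their array's median intensity, so the ratio rests on a dim denominator. With a pseudocount of 64 the difference was 2.58, with a pseudocount of 1 it was 3.88, and without ETV1 replicate D it was 3.75.

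The other HS3ST1 probe sets did not all repeat this. 205465_x_at, whose suffix marks probes that can match several transcripts, read 7.74, 1 and 5.81 in control and 158, 139, 138 and 42.2 in ETV1, a difference of 2.59 (SE 0.31), again with replicate D lowest. 213991_s_at lay below the median of every array, at 21.7, 29.9 and 30.2 in control and 13.1, 16.3, 13.1 and 22.3 in ETV1, and differed by -0.43 (SE 0.17). Both differences of the brighter probe sets stayed past the threshold in every alternative run.

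On the arrays labelled ERG, 205466_s_at read 72.1, 78.2 and 58.5. These values lay above all control arrays and below all ETV1 arrays. The difference from control was 0.77 (SE 0.30), and the call was lost with a pseudocount of 64 (0.44) and without any single control array or any single array labelled ERG (0.69 to 0.86). 205465_x_at read 1, 4.80 and 1.58 there, overlapping control, and its difference of -0.17 was turned to 0.20 by median centring. 213991_s_at read 9.89, 22.9 and 14.4, overlapping control, a difference of -0.46 (SE 0.18). That call was lost without control replicate B or C or ERG-labelled replicate A or C, and in 5 other alternatives. Only 205466_s_at of the 3 was therefore higher on the arrays labelled ERG than in control. Against ETV1 cells the difference of 205466_s_at was -2.65 (SE 0.28).

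The probe sets of ETV1 and HS3ST1 that were higher in ETV1 cells had their lowest ETV1-group values on the same array. The ETV1 probe set 217053_x_at read 1302, 1689, 1443 and 844 on replicates A to D, and 72.5, 70.3 and 122 in control. ETV1 221910_at, which read 74.6, 93.7, 86.0 and 108 against 81.1, 82.8 and 76.9 in control, and HS3ST1 213991_s_at were highest on replicate D. The genes nearest to HS3ST1 were ranked by the mean absolute difference from it, over the 7 ETV1 and ERG-labelled arrays, in log2(intensity + 16) minus the control mean. They were PRSS2 (0.33), PRSS3 (0.34), IL13RA2 (0.44), RGS2 (0.49) and KCP (0.51). PRSS2 and PRSS3 are near-identical trypsinogen genes read by probe sets that can match several transcripts, so the pair may not be separate. PRSS2 read 1228, 1514, 1397 and 560.4 on ETV1 replicates A to D. IL13RA2, a decoy cytokine receptor, read 2158, 2602, 2426 and 1046. Replicate D was among the arrays that ranked these genes, so their low values there come with the choice.

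**Figure D2:**
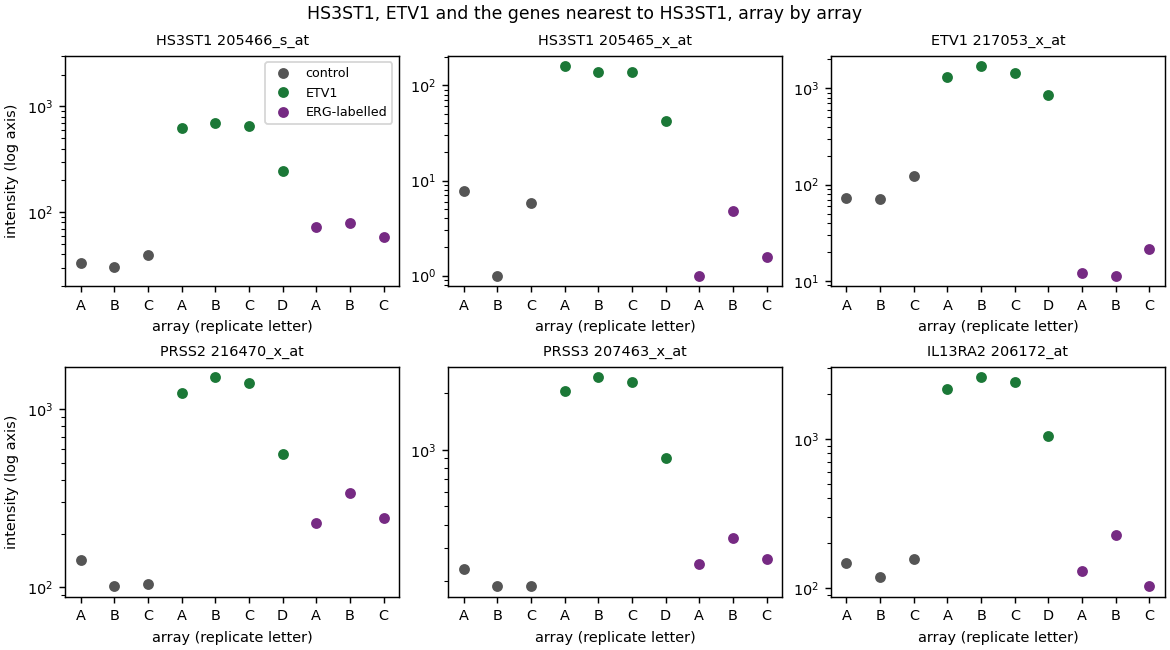
Intensity (log axis, one range per panel) on each of the 10 arrays for 2 HS3ST1 probe sets, the brightest ETV1 probe set, and the 3 genes nearest to HS3ST1. In each of the 6 panels the ETV1 arrays lie above all control and ERG-labelled arrays, and ETV1 replicate D is the lowest of them, at 247 for HS3ST1 205466_s_at and 844 for ETV1.

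ETS factors bind a GGAA core, and the 250 bases before the annotated start of HS3ST1 hold none on either strand. The windows below are those of the gene with the largest difference in ETV1 cells (HS3ST1), of the other gene with a probe set whose ETV1 arrays lay wholly above control (SDC1) and of the gene whose ETV1 arrays lay wholly below it in 3 probe sets (HS2ST1). Sequences are from RefSeq (GRCh38.p14), written 5′ to 3′ on the gene's strand, with GGAA or its reverse complement TTCC in capitals.
HS3ST1, chr4:11428895-11429144, minus strand: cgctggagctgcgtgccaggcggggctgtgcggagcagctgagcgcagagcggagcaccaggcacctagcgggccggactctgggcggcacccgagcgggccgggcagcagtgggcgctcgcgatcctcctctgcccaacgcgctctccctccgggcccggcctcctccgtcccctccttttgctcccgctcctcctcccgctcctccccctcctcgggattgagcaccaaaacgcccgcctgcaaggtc
SDC1, chr2:20225476-20225725, minus strand: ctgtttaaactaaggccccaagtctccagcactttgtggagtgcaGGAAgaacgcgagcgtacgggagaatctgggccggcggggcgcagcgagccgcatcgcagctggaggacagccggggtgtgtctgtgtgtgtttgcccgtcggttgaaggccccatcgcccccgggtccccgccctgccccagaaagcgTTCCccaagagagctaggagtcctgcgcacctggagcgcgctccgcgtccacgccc
HS2ST1, chr1:86914385-86914634, plus strand: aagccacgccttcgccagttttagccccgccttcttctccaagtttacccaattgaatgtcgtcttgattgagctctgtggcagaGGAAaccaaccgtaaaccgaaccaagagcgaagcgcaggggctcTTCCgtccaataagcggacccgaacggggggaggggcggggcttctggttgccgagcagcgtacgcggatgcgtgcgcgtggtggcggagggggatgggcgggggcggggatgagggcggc
The table holds 2 windows for SDC1, of which the outer is printed. The HS3ST1 window is the only one in the table for that gene and lies inside the annotated gene (chr4:11393150-11434327), whereas the SDC1 and HS2ST1 windows end at the outer edge of theirs.

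The table of starts held 9 of the 10 genes, with 15 windows, and not EXT1. The windows are not all separate: those of EXT2 at chr11:44095947-44096196 and chr11:44095948-44096197 hold nearly the same sequence. GGAA on either strand was in 12 of the 15 windows, beside 92.7% of all 35116 windows of the same length. The windows without it were those of HS3ST1 and GPC1 and 1 of the 4 of SULF2. The longer form CGGAAG (reverse complement CTTCCG), which contains GGAA, was in 1 of 15, that of HS2ST1, beside 16.5% of all windows. The form CCGGAAGT (reverse complement ACTTCCGG), which contains both, was in 0 of 15, beside 3.42%. These counts describe letters in short windows and say nothing about binding.

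HS2ST1 sulfates the uronic acid of the chain, a modification that fibroblast growth factors need. Its probe set 203284_s_at read 494, 475 and 401 in control, 299.8, 303, 319 and 348 in ETV1 and 657, 579 and 696 on the arrays labelled ERG. The 3 groups did not overlap, with ETV1 lowest and the arrays labelled ERG highest. ETV1 differed from control by -0.50 (SE 0.13), a ratio of 0.695. Probe sets 203283_s_at and 203285_s_at differed likewise, by -0.50 (SE 0.15) and -0.61 (SE 0.15), and in both the ETV1 arrays lay wholly below control. None of these 3 calls held without control replicate A or B or without ETV1 replicate A, B or C, where the differences were -0.40 to -0.61. For 203283_s_at the call was also lost without ERG-labelled replicate A (-0.50), with a pseudocount of 1 (-0.52) and in the fit of only the ETV1 and control arrays (-0.50).

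The HS2ST1 probe sets parted on the arrays labelled ERG. 203284_s_at differed from control by 0.48 (SE 0.14), but only by 0.22, and no longer past the threshold, after quantile normalization. 203285_s_at, at 326, 351.4 and 423 against 337, 301 and 232 in control, differed by 0.33 (SE 0.16), and past the threshold after median centring (0.69) or without control replicate A (0.44). 203283_s_at read 401, 405 and 424, wholly below the control values of 614, 542 and 445, a difference of -0.36 (SE 0.16) that median centring took to 0.01. It lay past the threshold after quantile normalization (-0.52), without control replicate C (-0.48), with a pseudocount of 64 (-0.32), after the filter and in the trend and robust fit. The dimmest probe set, 230465_at, stayed below the median of every array, between 5.74 and 22.6, and on the arrays labelled ERG differed by -0.40 (SE 0.18), past the threshold in 3 alternatives (-0.41 to -0.59).

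HS6ST2 sulfates glucosamine, the modification that SULF2 removes. Its probe set 1552767_a_at read 791, 657 and 570.5 in control, 553, 557, 519.6 and 498 in ETV1 and 1300.2, 1091 and 1253 on the arrays labelled ERG. The arrays labelled ERG were highest without overlap, at a ratio to control of 1.81 and a difference of 0.85 (SE 0.15). Probe set 230030_at gave 0.75 (SE 0.14) in the same comparison. The third, 1552766_at, went the other way, from 156, 160.2 and 151 in control to 40.0, 20.6 and 53.5, a difference of -1.72 (SE 0.20). In ETV1 cells the values of 1552767_a_at and 230030_at lay wholly below control, by -0.32 (SE 0.14) and -0.38 (SE 0.13), neither past the threshold, although 230030_at passed without control replicate C (-0.50), after quantile normalization (-0.37) and with a pseudocount of 64 (-0.35).

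NDST1 removes acetyl groups and adds sulfate, the step that most later modifications depend on. Its brightest probe set, 1554010_at, read 338, 371 and 349 in control, 343, 345, 335 and 327 in ETV1 and 130.1, 156 and 129 on the arrays labelled ERG. ETV1 and control overlapped, and the arrays labelled ERG were lower by 1.26 (SE 0.13). Neither 202607_at, at 93.4 ± 12.7 (n = 3), 80.6 ± 12.9 (n = 4) and 104 ± 35.8 (n = 3), nor the dim 202608_s_at set any group apart as deposited. After quantile normalization and median centring 202607_at lay past the threshold as higher on the arrays labelled ERG, by 0.46 and 0.47.

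EXT1 and EXT2 form the polymerase of the chain. EXT1 201995_at read 239, 230.4 and 171 in control, 237, 249, 236 and 246 in ETV1 and 556, 728 and 826 on the arrays labelled ERG. The arrays labelled ERG were higher than all others, with a ratio to control of 3.29 and a difference of 1.64 (SE 0.17), while ETV1 differed from control by 0.18 (SE 0.16). The other EXT1 probe sets went the opposite way on the arrays labelled ERG. 214985_at differed by -0.91 (SE 0.22), from 105, 99.5 and 83.1 to 65.2, 23.5 and 49.3, and was not past the threshold after quantile normalization (-0.56). 230183_at differed by -0.52 (SE 0.20), with overlapping arrays, and its call was lost when control replicate B, control replicate C, ERG-labelled replicate A or ERG-labelled replicate B was left out (-0.35 to -0.51). Quantile normalization (-0.17), median centring (-0.16), a pseudocount of 1 (-0.60) and the fit of only these 2 groups also ended it.

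EXT2 202013_s_at read 264, 242 and 244 in control, 262, 257, 240.5 and 249 in ETV1 and 843, 679 and 536 on the arrays labelled ERG. Control and ETV1 overlapped, and the arrays labelled ERG lay above both, at a ratio to control of 2.75 and a difference of 1.38 (SE 0.16). The brighter 202012_s_at differed by 0.42 (SE 0.15), from 732, 690.3 and 527 to 799.9, 925 and 874. That call was lost after quantile normalization (0.03), in the fit of only these 2 groups, and without control replicate C (0.28) or ERG-labelled replicate B (0.37) or C (0.41). In ETV1 cells the EXT2 probe sets differed by 0.01 (SE 0.15) and -0.21 (SE 0.14).

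SDC1, the main syndecan of epithelia, was higher in ETV1 cells. Its probe set 201287_s_at read 2755, 2586 and 1878 in control and 3553, 4370.1, 4025 and 4374 in ETV1, without overlap, at a ratio of 1.70 and a difference of 0.77 (SE 0.16). This one stayed past the threshold in every alternative run. Probe set 201286_at went from 2578, 2177 and 1811 to 2578, 3249.7, 2871 and 3018. Replicate A of the 2 groups read alike on it, and its difference of 0.43 (SE 0.14) was not past the threshold as deposited, but was after quantile normalization (0.60) and without control replicate A (0.55), and in 3 other alternatives. On the arrays labelled ERG 201287_s_at read 1860.2, 2173 and 1596 and 201286_at read 1560.0, 1639.8 and 1513. They differed from control by -0.35 (SE 0.18) and -0.46 (SE 0.15). The second call was lost without control replicate A (-0.34) and after median centring (-0.10), which took the first to 0.01. Quantile normalization instead took the first to -0.92, past the threshold, and it also passed without control replicate C (-0.52) or ERG-labelled replicate B (-0.46).

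SDC4, the syndecan of focal adhesions, has 1 probe set. It read 5435, 5131 and 4650.0 in control, 4491, 5056, 4752 and 4858 in ETV1 and 8803, 9234 and 11731 on the arrays labelled ERG. ETV1 and control overlapped, with a difference of -0.08 (SE 0.14) that quantile normalization turned to 0.10. The arrays labelled ERG were higher than all others, at a ratio to control of 1.96 and a difference of 0.96 (SE 0.15).

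GPC1, a lipid-anchored core protein, gave probe sets that disagreed in ETV1 cells. 202756_s_at read 2171, 2060.1 and 1385 in control and 1434, 1680.0, 1489.5 and 2039 in ETV1, a difference of -0.16 (SE 0.18) with overlapping arrays. The dimmer 202755_s_at read 122, 189 and 89.1 and 184, 220.2, 198 and 291, a difference of 0.71 (SE 0.21). ETV1 replicate D was the highest ETV1 array in both. The second difference was past the threshold with all arrays but not with control replicate A or C, any 1 ETV1 array or any 1 array labelled ERG left out (0.49 to 0.79), nor with a pseudocount of 1 (0.78) or in the fit of only the 2 groups. On the arrays labelled ERG 202756_s_at read 888, 1092 and 866, below all control and ETV1 arrays, a difference from control of -0.95 (SE 0.19). There 202755_s_at read 116, 92.2 and 95.15, overlapping control. Its difference from control of -0.30 (SE 0.23) passed in no alternative, and quantile normalization and median centring each turned it to 0.06.

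SULF2 removes sulfates from finished chains outside the cell. 224724_at read 2574, 2146 and 1581 in control, 1956, 2528, 2029.7 and 2974 in ETV1 and 1939, 2062 and 2462 on the arrays labelled ERG. All 3 groups overlapped on it. It differed from control by 0.18 (SE 0.19) in ETV1 and by 0.06 (SE 0.21) on the arrays labelled ERG. Quantile normalization turned the latter to -0.53, past the threshold as lower. In that setting the arrays labelled ERG were also lower than ETV1 past the threshold (-0.88). 233555_s_at read 901, 789 and 667, 899, 1121, 931 and 1227 and 414, 423 and 436 in the same order. On that probe set the arrays labelled ERG lay below all others, by 0.85 (SE 0.16) against control, while ETV1 overlapped control with a difference of 0.40 (SE 0.15) that passed only after quantile normalization (0.53).

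**Figure D3:**
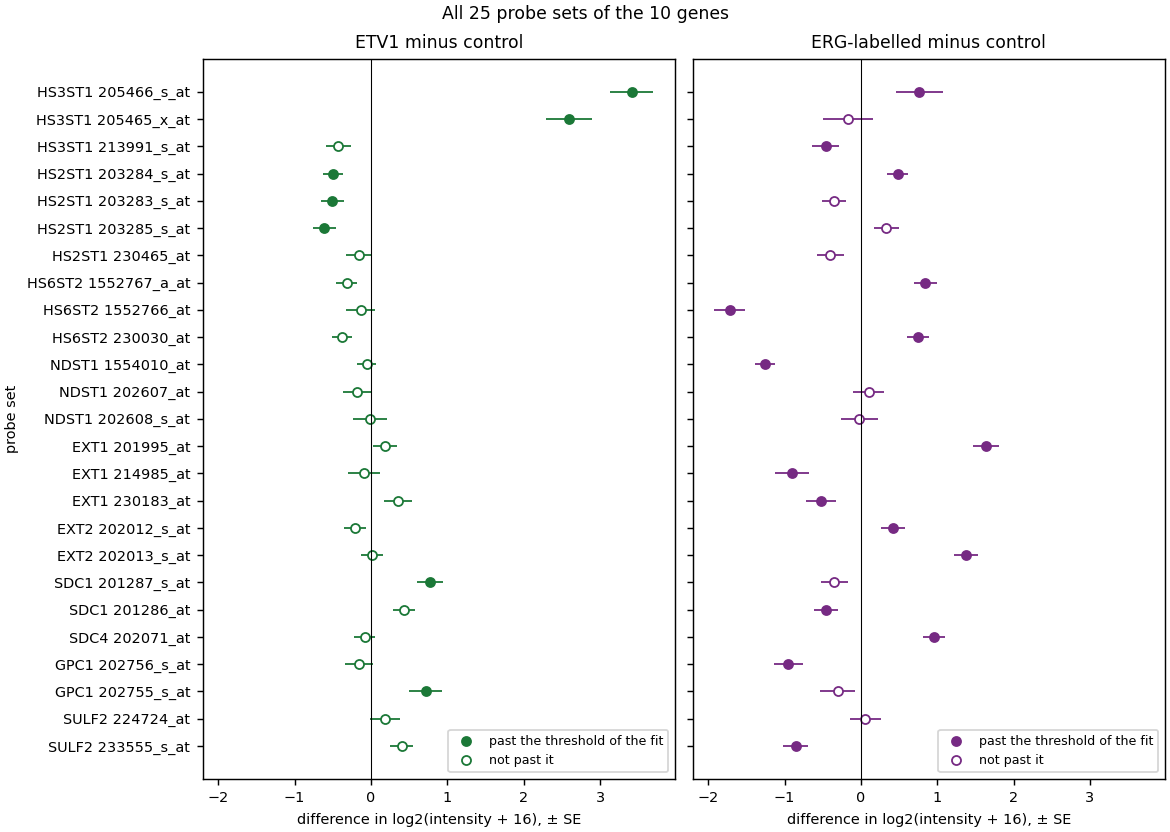
Difference from control in log2(intensity + 16), with its SE, for all 25 probe sets of the 10 genes, in ETV1 (left) and ERG-labelled arrays (right). Filled points lie past the adjusted threshold, 7 of 25 on the left (12.2% of all probe sets) and 16 of 25 on the right (65.9%), and the probe sets of EXT1, HS6ST2 and HS3ST1 point in opposite directions on the right.

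Probe sets of 1 gene often disagreed on the arrays labelled ERG. Among the 9 genes with at least 2 probe sets, EXT1, HS6ST2 and HS3ST1 had probe sets past the threshold in both directions against control, 3 of 9 beside 34.9% of all 10523 such genes. In ETV1 against control this was 0 of 9, beside 0.390% of all. Which of the disagreeing probe sets reads the gene's level was not tested. Of the 25 probe sets 22 lay above their array's median on at least 3 arrays. The other 3 (HS3ST1 213991_s_at, HS2ST1 230465_at and NDST1 202608_s_at) lay below it on all 10.

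Set directly against each other, the arrays labelled ERG and the ETV1 arrays differed in 19 of 25 probe sets past the threshold, 8 higher and 11 lower on the arrays labelled ERG, beside 69.9% of all probe sets (36.8% higher and 33.1% lower). The arrays did not overlap in 19 of 25, beside 68.0% of all. After median centring the split was 10 higher and 9 lower. That centring took the count over all probe sets from 28736 to 30676 and their median difference from 0.06 to 0.45. HS6ST2 1552767_a_at (difference 1.16), HS2ST1 203284_s_at (0.98), EXT1 201995_at (1.46) and SDC4 (1.04) were higher there. HS3ST1 205466_s_at (-2.65), SDC1 201287_s_at (-1.12), GPC1 202756_s_at (-0.79) and NDST1 1554010_at (-1.20) were lower. The GPC1 probe set was not past the threshold after median centring (-0.40). Other probe sets of HS6ST2 (1552766_at, -1.58) and EXT1 (214985_at, -0.81, and 230183_at, -0.88) lay past the threshold as lower instead. The call of EXT1 214985_at was lost after quantile normalization (-0.45) and after median centring (-0.42). HS6ST2 and EXT1 were the 2 of 9 genes with several probe sets that passed both ways, beside 36.7% of all such genes. NDST1 202607_at differed by 0.29, not past the threshold, and passed as higher in 3 alternatives. This comparison shares its arrays with the other 2.

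The rest of the pathway, 47 measured genes of 50 listed and none of them among the 10, was tested with 1 probe set each, the brightest. This list was also chosen with earlier results of these arrays known, so the adjusted p-values printed for it are descriptions. In ETV1 cells 4 rose and 5 fell, against 5.23% and 8.25% of all 19775 genes (13.5% in all). Without control replicate A or B 4 in all passed. Over the 47 genes the median difference was -0.03 (-0.04 over all genes). UGDH, which makes UDP-glucuronic acid for the chain, rose from 409 ± 56.0 (n = 3) to 658 ± 25.4 (n = 4), by 0.67 (SE 0.13, limma adjusted p = 0.0041). SLC35B3, a transporter of the sulfate donor, rose by 0.59 (limma adjusted p = 0.015) and the glypican GPC2 by 0.67 (limma adjusted p = 0.009). GPC2 was dim, at 32.7 ± 5.79 in control and 61.4 ± 7.77 in ETV1, below the array's median on every array of both groups. SLC35B3 did not pass without control replicate B or ETV1 replicate A, and its second probe set differed by -0.48, not past the threshold. The second probe set of NAGLU did not pass either (0.26). NAGLU, a lysosomal enzyme of heparan sulfate breakdown, rose by 0.63 (limma adjusted p = 0.035), but not without any 1 control array or ETV1 replicate A, B or D, nor with a pseudocount of 1 or in the fit of only these 2 groups.

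Of 8 other O-sulfotransferases 2 fell in ETV1 cells and 6 did not pass, with a median difference of -0.04, the same as over all genes. HS6ST1, which acts at the same position as HS6ST2, went from 392 ± 45.8 to 225 ± 51.7, a difference of -0.78 (SE 0.16, limma adjusted p = 0.0073). HS3ST3A1, a relative of HS3ST1 that sulfates the same position in another sequence context, went from 61.2 ± 18.7 to 28.2 ± 6.42, a difference of -0.79 (SE 0.17, limma adjusted p = 0.0097), and failed the threshold once control replicate A was left out (-0.61). This probe set was dim, below the array's median on every ETV1 array and on control replicates B and C. The lysosomal GUSB fell by 0.64 (limma adjusted p = 0.012, not without control replicate A or B). Of the linker enzymes, FAM20B fell by 0.61 and B3GAT3 by 0.57 (limma adjusted p = 0.044 and 0.028). A second B3GAT3 probe set, 203452_at, fell by 1.24 (limma adjusted p = 1.4e-04), from 328 ± 62.4 to 128 ± 12.3, and the second of FAM20B did not pass (-0.42). By the brightest probe sets neither passed without control replicate A or B or without ETV1 replicate A, B or C, or with a pseudocount of 1, and FAM20B also failed without ETV1 replicate D or ERG-labelled replicate A. The other probe sets of HS6ST1 and GUSB did not pass. Relatives whose brightest probe set did not pass were HS3ST2 (0.06), HS3ST3B1 (-0.21), SULF1 (0.23), GLCE (-0.05), SDC2 (0.12), SDC3 (-0.03), GPC4 (-0.04), GPC6 (-0.10), EXTL2 (-0.28) and EXTL3 (0.50). HS3ST3B1 221062_at fell, from 24.4 ± 7.58 to 6.09 ± 3.06 (difference -0.86, limma adjusted p = 0.0037), but lay below the median of every array.

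Of these 47 genes 13 rose and 23 fell on the arrays labelled ERG, against 39.1% and 31.2% of all genes (70.3% in all), with a median difference of -0.31 (0.14 over all genes). After median centring 19 rose and 20 fell. HS3ST3A1 rose from 61.2 ± 18.7 to 437 ± 46.3 (n = 3 each), by 2.57 (SE 0.18, limma adjusted p = 1.2e-07). All 5 precursor genes changed by their brightest probe sets, with UXS1, UGDH, SLC35B3 and PAPSS1 higher (1.54, 1.18, 1.36 and 0.56) and PAPSS2 lower (-1.21), though PAPSS1 did not pass after quantile normalization. The other PAPSS2 probe sets, 203060_s_at and 203059_s_at, rose instead, by 1.41 and 0.75 (limma adjusted p = 4.2e-05 and 0.0067). Of 11 further core proteins 8 fell and 3 rose, of which HSPG2 did not pass after median centring and the rise of GPC5 did not pass without control replicate B or C or ERG-labelled replicate A or B. AGRN, the basement membrane proteoglycan agrin, fell from 5376 ± 468 to 273 ± 38.5 (difference -4.22, SE 0.14, limma adjusted p = 2.8e-10), and its other 3 probe sets fell too. GPC3 (-2.25), GPC4 (-2.12), SDC2 (-2.12) and GPC6 (-1.69) also fell. SDC2, another syndecan, went from 119 ± 8.02 to 15.4 ± 5.73, below the median of every array labelled ERG. The second GPC3 probe set did not pass. SDC3 rose by 0.93 and GPC2 by 1.05.

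Among modifying and degrading enzymes on the arrays labelled ERG, IDUA (-2.56), SGSH (-1.93), NDST3 (-2.07), EXTL3 (-1.57) and SULF1 (-0.80) fell by their brightest probe sets. EXTL3 209202_s_at rose instead, from a mean of 24.4 to 83.8 (difference 1.31, limma adjusted p = 4.9e-05), and the other probe sets of IDUA and SGSH and 1 of SULF1 did not pass. EXTL2 (0.68), the heparanase HPSE (0.95) and NAGLU (0.99) rose. The second NAGLU probe set differed by -0.42 and did not pass. HS3ST3B1 fell by 1.35 by its brightest probe set, while its probe set 227361_at rose from 24.9 ± 14.2 to 231 ± 35.9. HS6ST1 fell by 0.47 (limma adjusted p = 0.028), a call lost after median centring (-0.11) and without control replicate A or B or ERG-labelled replicate A or C. GLCE (0.08) and HS3ST2 (-0.31) did not pass.

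**Figure D4:**
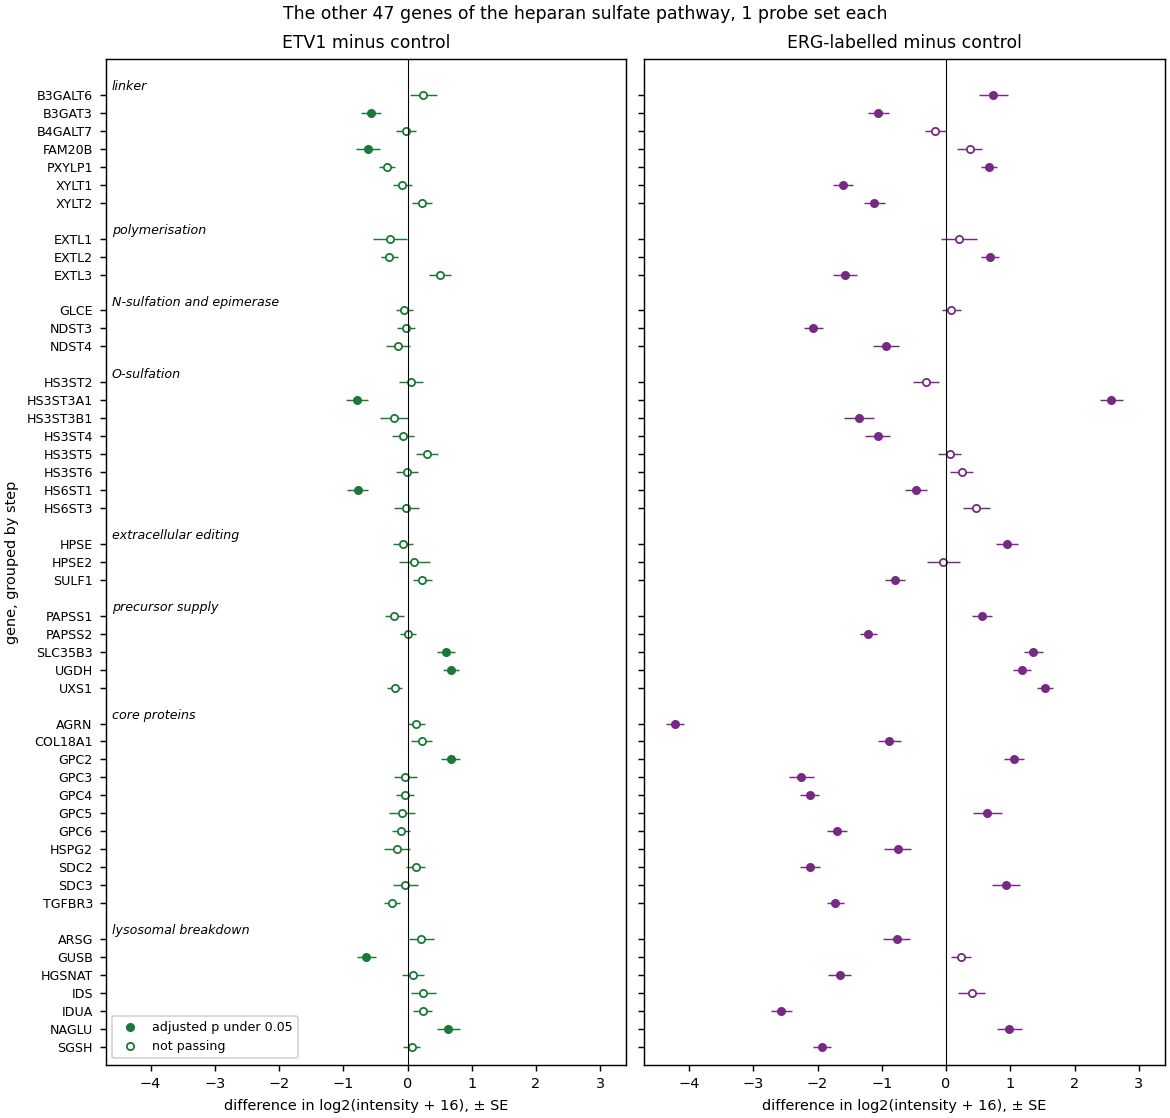
Difference from control in log2(intensity + 16), with its SE, for 47 further genes of the heparan sulfate pathway grouped by step, in ETV1 (left) and ERG-labelled arrays (right). Filled points have an adjusted p under 0.05, 9 genes on the left and 36 on the right, and HS3ST3A1 lies at -0.79 on the left and at 2.57 on the right.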

How the data were processed

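The deposited values are intensities on a linear scale, 1 per probe set and array. Per the labels' protocols, total RNA was extracted with Trizol and hybridised as biotinylated cRNA. The authors' probe summary and scaling are not given in the sources used here. Many values sit at 1. They were used as deposited. The number of arrays (10) limits precision.

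Of 54675 probe sets 41091 name 1 gene. Tests used limma (lmFit, eBayes) on log2(intensity + 16), no filter and all 3 groups fitted together (7 residual degrees of freedom). P-values are two-sided, adjusted by Benjamini-Hochberg over the 41091, with a threshold of 0.05. The code was tested on simulated data.

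Members and lists were chosen with earlier results of these data known, so adjusted p-values printed for genes of any list are descriptions. The pathway lists were taken from textbook biochemistry. All members were named, then passing pathway genes with the 6 largest differences each way (3 for the chondroitin branch and for signals that bind heparan sulfate), and fixed relatives of the members. For the arrays labelled ERG, SGSH, HPSE, PAPSS1, PAPSS2, HSPG2 and GPC5 were named besides these. Some genes of the lists are not reported here.

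Alternatives were quantile normalization, median centring, a filter (above the array median on 3 arrays), 1 probe set per gene, pseudocounts of 1 and 64, trend with robust fitting, only the 2 groups compared, a replicate block, and leaving out each array. Fits ran in limma 3.58.1 under R 4.3.3.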

Additional observations from a re-analysis of the deposited data

Results flagged for a closer look

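HS3ST1 205466_s_at read 247 on ETV1 replicate D, and the nearest other ETV1 array read 630.2. The gap was 0.86 of the range of the 4 arrays, above Dixon's 95% critical value for a group of that size. It was the 1 probe set so marked of 25 tested, and chance alone marks about 1 in 20.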

How the results depend on the processing

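Each alternative kept the sign of every member difference that lay past the threshold as deposited. Of the others, SULF2 224724_at in ERG-labelled against control went from 0.06 to -0.53 after quantile normalization, and passed there as lower. With 1 probe set per gene, 3 of 10 members lay past the threshold in ETV1 against control, beside 2991 of all 19775 genes. In ERG-labelled against control this was 8 of 10, beside 14075, and in ERG-labelled against ETV1 9 of 10, beside 14749. These stand in place of 7, 16 and 19 of 25 probe sets. Leaving out 1 array at a time gave 3 to 7, 13 to 16 and 19 to 20 member probe sets, and 4 to 9 and 34 to 38 of the 47 other pathway genes against control. With 3 in place of 7, the arrays whose loss lowered the ETV1 count most were ETV1 replicates A, B and C, followed by control replicates A and B with 4. The count over all probe sets in ETV1 against control went from 4998 to 3159 without control replicate A and to 2924 without control replicate B, and was 2991 with 1 probe set per gene, where fewer are tested. In ERG-labelled against control that last setting gave 14075 in place of 27084. Across groups, deviations of same-letter arrays from their group means correlated at -0.102 to 0.025 (9 pairs), beside -0.116 to 0.086 for different letters (24 pairs). No pairing by letter showed in these values, but they cannot establish that there was none. With the replicate block 4 member probe sets passed in ETV1 against control, 16 in ERG-labelled against control and 19 in ERG-labelled against ETV1, with 6 and 37 of the other pathway genes against control. For these comparisons in that order, this block gave 3566, 26587 and 27289 calls over all 41091 probe sets. In ETV1 against control it ended the calls of HS2ST1 203284_s_at (-0.54) and 203283_s_at (-0.58), GPC1 202755_s_at (0.59), NAGLU, FAM20B and B3GAT3 35179_at. The cause of these shifts was not tested. Intensity limits the dimmest probe sets most, and 3 of the 25 never rose above their array's median.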

Other observations

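The chondroitin sulfate branch, which shares its linker with heparan sulfate, was read in 16 genes. In ETV1 cells 2 rose and 1 fell, beside 5.23% and 8.25% of all genes, with a median difference of 0.09. DSEL, an epimerase-like gene of this branch, rose from 46.8 ± 6.28 (n = 3) to 102 ± 4.54 (n = 4), by 0.91 (limma adjusted p = 4.6e-04). The chain synthase CHSY3 rose from 6.74 ± 2.23 to 33.7 ± 9.75, by 1.11 (limma adjusted p = 0.0021), with 8 of the 10 arrays at or below their median intensity. The sulfotransferase CHST3 fell by 0.55 (limma adjusted p = 0.035), a call lost without control replicate A or B or without ETV1 replicate A, B or C, after quantile normalization and with a pseudocount of 1. On the arrays labelled ERG 7 rose and 7 fell, beside 39.1% and 31.2% of all genes. CHST7 (1.88), CHSY3 (1.42) and DSE (1.13) led the rises, and CHPF (-2.38), CSGALNACT1 (-2.14) and CHPF2 (-1.23) the falls.

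Of 13 ligands and receptors that bind heparan sulfate, 3 rose in ETV1 cells and the other 10 did not pass in limma, beside 5.23% higher and 8.25% lower of all genes, with a median difference of 0.22 (-0.04 over all genes). FGFBP1, which releases fibroblast growth factors from the matrix, rose from 213 ± 11.4 (n = 3) to 708 ± 122 (n = 4), by 1.65 (SE 0.19, limma adjusted p = 1.5e-04). PDGFA, a platelet-derived growth factor chain, rose from 1115 ± 238 to 2777 ± 159, by 1.32 (limma adjusted p = 2.2e-04). The heparin-binding factor MDK rose by 0.71 (limma adjusted p = 0.043), but failed when any 1 control array, ETV1 replicate A, B or C or ERG-labelled replicate A was left out, after median centring and with a pseudocount of 1. On the arrays labelled ERG 4 rose and 6 fell, again beside 39.1% and 31.2% of all genes. FGF2 rose from 243 ± 4.56 to 1364 ± 146 (n = 3 each), by 2.41, beside FGFBP1 (1.39) and VEGFA (1.16), while the receptor FGFR1 fell by 3.06, FGF1 by 2.30 and FGF18 by 1.88.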
